A study of Macaca fascicularis with 16 samples.

Results

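The infrarenal aorta was compared with the descending aorta in bulk RNA sequencing libraries of cynomolgus monkeys (Macaca fascicularis) labelled as young and normal. The comparison used 8 of the 16 libraries in the series, 4 labelled infrarenal and 4 labelled descending, chosen by their labels and not by any measured value. The other 8 libraries, 4 of the ascending and 4 of the suprarenal aorta, entered the model for its estimate of the spread. The labels give the treatment of every library as "Baseline", and no genotype, sex, exact age, number of animals or wall layer is stated. Of 32846 rows in the count table, 15926 had enough counts to be tested. Library totals were between 14402824 and 17630057 counts in the infrarenal and between 15953945 and 17750133 counts in the descending group. Whether a replicate number marks 1 animal is not stated either, and p-values therefore refer only to the spread among the libraries, which may be technical.

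The descending aorta runs through the chest and the infrarenal aorta is the last stretch before the vessel divides into the iliac arteries. The thoracic wall is rich in elastic lamellae, sheets of elastin on a scaffold of fibrillin microfibrils, and the abdominal wall below the renal arteries holds fewer of them and is the usual site of abdominal aneurysm. Smooth muscle cells of the wall also carry a record of their position along the body in HOX genes, transcription factors whose chromosomal order follows the head-to-tail order of their expression. The series' title names NOTCH3, a receptor of vascular smooth muscle that is activated by ligands such as JAG1 on neighbouring cells, and the dispersion of elastic fibres in the infrarenal aorta.

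In both groups the libraries held the contractile genes that define vascular smooth muscle. The summed level of 7 smooth muscle markers, in CPM (a gene's counts relative to the library's total, scaled with TMM factors), ran from 21214 to 56322 in the infrarenal libraries and from 25248 to 28696 in the descending libraries, and 0 of the 7 passed the test of edgeR (2 at an unadjusted p under 0.05, 0 with DESeq2 or limma voom). Infrarenal replicate 1 stood apart from the other 7 libraries in library measures. It had a TMM factor of 0.736, where the other 15 libraries ran from 0.977 to 1.08, its 10 highest genes held 12.6% of its counts, and its 77 ribosomal protein genes averaged 1.17 log2 units above the infrarenal mean. The first principal component of the 8 libraries, with 47.5% of the variance, placed it at 148 and the other 7 between -33.5 and -0.561. The separation of the 2 regions lay on the second component (18.5% of the variance), where the infrarenal replicates 2 to 4 fell between -47.2 and -43.8, infrarenal replicate 1 at 11.9 and the descending libraries between 26.6 and 38.6.

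In the infrarenal aorta 101 genes were higher and 162 were lower than in the descending aorta, at an adjusted p under 0.05. All adjusted p-values are from the quasi-likelihood F test of edgeR with Benjamini-Hochberg adjustment over the 15926 genes, and changes are log2 of infrarenal over descending. The 263 called genes were 1.65% of those tested, 0.634% in the higher and 1.02% in the lower direction, and 2197 genes had an unadjusted p under 0.05. The median change over all tested genes was 0.02. Among called genes the median was 2.47 for those higher and -2.13 for those lower, and 147 of the 263 differed by more than 2 log2 units. In 262 of the 263 the 4 infrarenal libraries lay entirely above or below the 4 descending libraries, a pattern found in 10.1% of all tested genes (4.55% above, 5.51% below). IL18 was the exception. DESeq2 passed more genes, 624 of 15838, and its counts in the lists below stand against that share. List counts at an unadjusted p under 0.05 stand against the 2197 of 15926 genes. A gene is named as called or not by edgeR unless another tool is given. Without infrarenal replicate 1 the test called 264 genes, 93 higher and 171 lower, of which 195 were among the 263. Of the 263, 120 kept their call whichever 1 of the 8 libraries was removed, 33 of them higher and 87 lower. Absence of a call does not show that the 2 regions are equal. The gene lists below were chosen with earlier results of these data known. The shares over all genes given beside their counts are therefore a reference and not a test of a list.

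**Figure D1:**
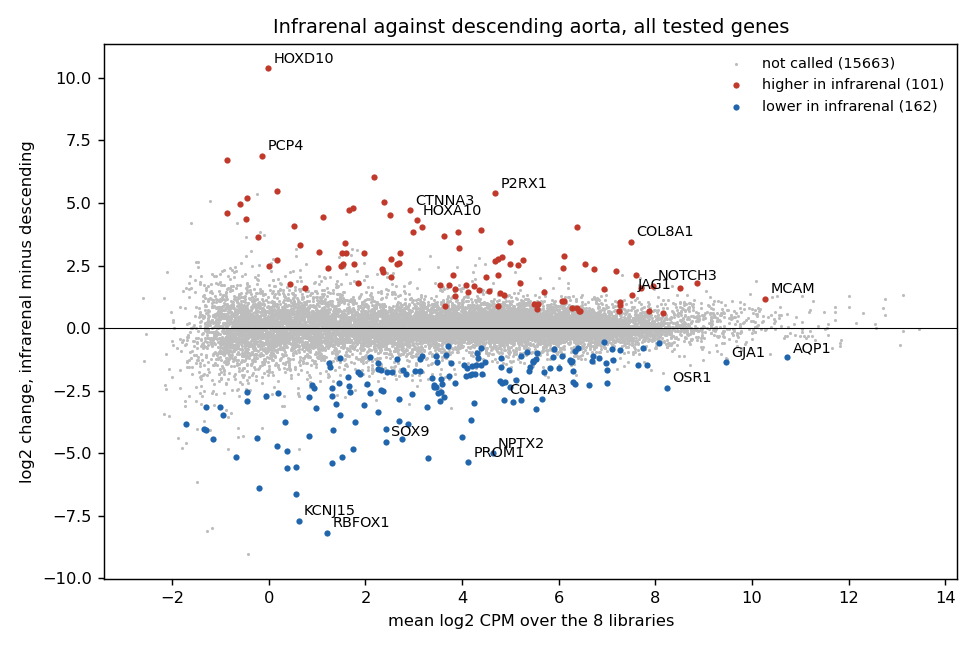
Each point is 1 of 15926 tested genes, placed by its mean log2 CPM over the 8 libraries (horizontal axis) and its fitted log2 change, infrarenal minus descending (vertical axis). The 101 genes called higher are red, the 162 called lower are blue and the rest are grey, and most called genes lie below a mean log2 CPM of 8 and beyond 1 log2 unit of change.

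The HOX genes of the posterior paralog groups that were called were higher in the infrarenal aorta. The list of groups 6 and above held 24 genes, of which 15 were tested. Of these, 6 were called higher, 0 lower, and the fitted change was above 0 in 15 of 15, against 52.1% of all genes. Their median was 1.80 against 0.02 for all genes. The call rate for the higher direction over all genes was 0.634%. Without infrarenal replicate 1 the same counts were 6, 0 and 15, and DESeq2 called 9 of the 15. HOXA10 was 40.03, 42.3, 42.5 and 24.8 CPM in the infrarenal libraries and 2.26, 1.26, 2.55 and 1.39 CPM in the descending libraries. It rose by 4.32 (SE 0.49, adjusted p = 0.000932), a 20.02-fold difference, and the lowest infrarenal library was infrarenal replicate 4. HOXA9, its neighbour in the cluster, was 51.3, 47.5, 44.5 and 34.5 CPM in the infrarenal libraries and 2.5, 5.06, 4.31 and 2.16 CPM in the descending libraries, a change of 3.66 (SE 0.55, adjusted p = 0.00318). HOXA11, the next gene on the other side, was scarcer at 1.0, 3.01, 7.01 and 0.792 CPM in the infrarenal libraries and 0.0611, 0, 0.182 and 0.111 CPM in the descending libraries, with a change of 4.94 (SE 1.04, adjusted p = 0.0227). Its call was lost with any 1 library left out other than infrarenal replicates 1 or 4 (adjusted p up to 0.0864), and its change was 4.07 without infrarenal replicate 3.

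HOXD10, of the HOXD cluster, had 624 counts in the 4 infrarenal libraries together and 0 in the 4 descending libraries. Set against a floor of 3 counts over the descending group, that is at least 225-fold higher (adjusted p = 0.00494). By library HOXD10 was 6.86, 14.7, 16.1 and 2.55 CPM in the infrarenal aorta, lowest in infrarenal replicate 4. HOXD9 was 34.3, 35.3, 39.3 and 16.9 CPM in the infrarenal libraries and 1.83, 1.02, 0.788 and 0.222 CPM in the descending libraries, a change of 5.02 (SE 0.84, adjusted p = 0.00517). HOXD8 averaged 32.5 ± 8.1 against 10.1 ± 4.52 CPM (SD, n = 4) without overlap and did not pass with edgeR (change 1.68 (adjusted p = 0.156)), but was called by DESeq2 (adjusted p = 0.0336) and limma voom (adjusted p = 0.029). In the HOXC cluster HOXC9 was 13.9, 8.73, 9.7 and 5.83 CPM in the infrarenal libraries and 0.672, 0.542, 0.425 and 0.111 CPM in the descending libraries, a change of 4.43 (SE 0.73, adjusted p = 0.00486). HOXC10 (11.6, 6.44, 5.05 and 5.38 CPM against 3.54, 2.11, 2.85 and 2.22 CPM, adjusted p = 0.0857) and HOXC8 (adjusted p = 0.305) were not called by edgeR although their groups did not overlap, and DESeq2 called HOXC10 (adjusted p = 0.00809). In the HOXB cluster 0 of 7 tested genes were called by edgeR, 2 had an unadjusted p under 0.05, 0 were called by limma voom and 1 by DESeq2. The latter was HOXB7, at 38.6, 16.6, 20.7 and 12.3 CPM against 10.6, 10.1, 11.3 and 5.76 CPM (adjusted p = 0.117 with edgeR, 0.0235 with DESeq2). The 9 posterior genes that were not tested held few counts. They included HOXA13 with 21 infrarenal against 1 descending count, HOXB9 with 35 against 10, HOXC11 with 11 against 0 and 4 genes with 0 counts in all 8 libraries.

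Anterior HOX genes, of groups 1 to 5, did not follow 1 direction. Of 13 tested, 1 was called higher and 1 lower, and the median was -0.01, or 0.18 without infrarenal replicate 1. HOXA4 fell to 2.24, 2.41, 4.52 and 3.28 CPM in the infrarenal libraries from 17.4, 19.1, 16.3 and 25 CPM in the descending libraries, a change of -2.64 (SE 0.32, adjusted p = 0.00106). Within the HOXA cluster the fitted change was thus negative at HOXA4 and positive at HOXA9, HOXA10 and HOXA11, while HOXA6 (adjusted p = 0.53) and HOXA7 (adjusted p = 0.341) between them were not called. HOXC4 was 27, 38.4, 29.6 and 26.8 CPM in the infrarenal libraries and 11.2, 7.47, 4.85 and 4.32 CPM in the descending libraries, a rise of 2.13 (SE 0.35, adjusted p = 0.00475). Gene models of the HOXC cluster overlap and the use of strand in the counting is not stated, so counts given to HOXC4 may come in part from its neighbours. HOXD4 (adjusted p = 0.166) and HOXD3 (adjusted p = 0.277) had groups that did not overlap, with higher infrarenal levels, and were not called by edgeR, while DESeq2 called HOXD4 (adjusted p = 0.0383). Of 8 tested cofactors of the MEIS, PBX and PKNOX families, which bind DNA together with HOX proteins, MEIS2 was called lower at 43.8, 42.6, 36.4 and 35.7 CPM against 78.9, 92.7, 81.2 and 98.1 CPM (-1.15 (SE 0.21, adjusted p = 0.0088)) and the other 7 were not called.

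**Figure D2:**
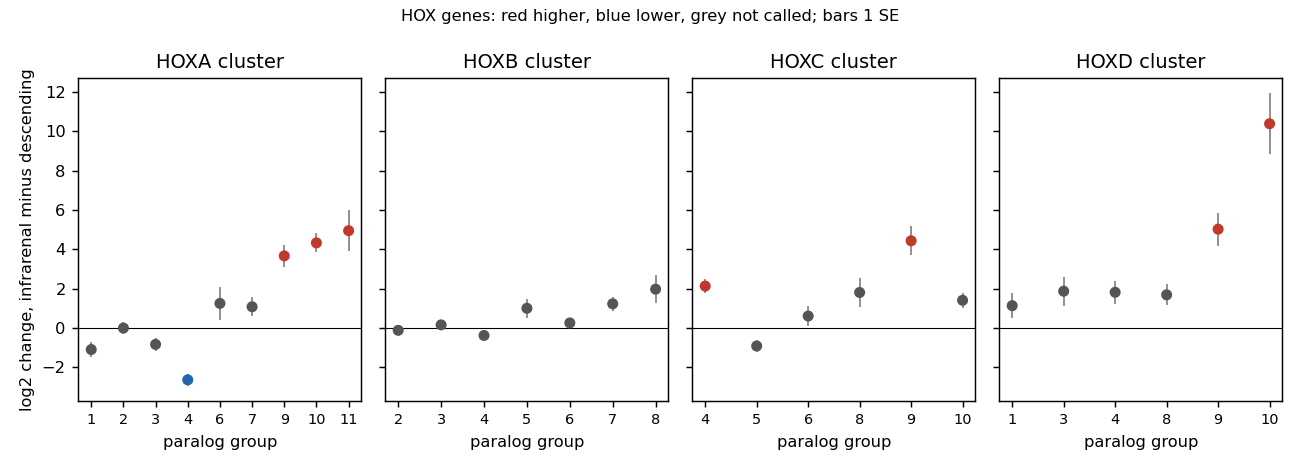
Fitted log2 change, infrarenal minus descending (vertical axis), of each tested HOX gene by paralog group (horizontal axis) in the 4 clusters, with bars of 1 SE. Called genes are red (higher) or blue (lower), and the largest changes stand at groups 9 to 11 of the HOXA, HOXC and HOXD clusters, with HOXA4 below 0. The point for HOXD10 depends on the prior count because all 4 descending libraries held 0 counts.

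Other transcription factors of regional identity were called in both directions. Of 79 on the list 54 were tested, and 4 were lower and 1 higher, against 1.02% and 0.634% over all genes. DESeq2 called 8 of the 54, against 624 of 15838 genes. SOX9, which governs cartilage and is also expressed in smooth muscle, was 0.386, 0.843, 2.16 and 1.24 CPM in the infrarenal libraries and 41.9, 21.9, 29.7 and 15.8 CPM in the descending libraries. It fell by 4.54 (SE 0.71, adjusted p = 0.00388), and infrarenal replicate 3 was the highest of its group. IRX1 and IRX2, of the Iroquois homeobox family, were both lower. IRX2 was 0.694, 0.0602, 1.05 and 0.849 CPM in the infrarenal libraries and 6.6, 3.37, 7.28 and 7.32 CPM in the descending libraries, a change of -3.20 (SE 0.63, adjusted p = 0.0148). IRX1 was scarcer, at 0, 0, 0.0655 and 0.17 CPM in the infrarenal libraries and 2.93, 2.11, 0.91 and 3.99 CPM in the descending libraries (-5.15 (SE 1.01, adjusted p = 0.0144)). The call of IRX1 was lost without infrarenal replicate 2 (adjusted p up to 0.0569) and its change was -6.39 without infrarenal replicate 4. TBX20, a T-box factor of the developing heart, was 0, 0.0602, 0.262 and 0.113 CPM against 0.855, 1.2, 1.15 and 0.998 CPM (-3.16 (SE 0.64, adjusted p = 0.0178)). It lost its call without infrarenal replicates 2 or 4 or descending replicate 2 (adjusted p up to 0.0753), and its change was -3.92 without infrarenal replicate 3. TBX2, another T-box factor, went the other way at 77.9, 39.5, 53.3 and 59.5 CPM in the infrarenal libraries and 11.4, 8.97, 16.1 and 16.2 CPM in the descending libraries, a rise of 2.12 (SE 0.42, adjusted p = 0.0164). That call was lost without descending replicates 1 or 2 (adjusted p up to 0.0751). OSR1, a zinc-finger factor of intermediate mesoderm, was outside the list. It was 247, 77.9, 93.4 and 139 CPM in the infrarenal libraries and 730.0, 728, 695 and 758 CPM in the descending libraries, a change of -2.39 (SE 0.40, adjusted p = 0.00559), and infrarenal replicate 1 was the highest of its group. Its paralog OSR2 was also lower, at 7.48, 7.58, 8.58 and 10.02 CPM against 21.3, 22, 30.2 and 15.4 CPM (-1.40 (SE 0.26, adjusted p = 0.00948)).

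The Notch pathway showed 3 called genes, a receptor, a ligand and a target, all higher in the infrarenal aorta. They were 1 of 4 receptors, 1 of 5 ligands and 1 of 21 targets and modulators tested, against 0.634% of all genes in that direction. NOTCH3 was 494, 429, 402 and 505 CPM in the infrarenal libraries and 236, 108, 94.2 and 128 CPM in the descending libraries. It rose by 1.69 (SE 0.26, adjusted p = 0.00354), a 3.23-fold difference, and descending replicate 1 was the highest of its group. The other receptors were not called. NOTCH1 was 7.64, 43.6, 88.3 and 63.9 CPM in the infrarenal libraries and 37, 19.3, 26.2 and 25.2 CPM in the descending libraries (adjusted p = 0.495), with infrarenal replicate 1 below every descending library. NOTCH2, which smooth muscle also carries, had a change of -0.32 (adjusted p = 0.60), and NOTCH4, an endothelial receptor, one of 0.58 (adjusted p = 0.713). Among 5 tested ligands JAG1 was called at 274, 272, 339 and 298 CPM in the infrarenal libraries and 169, 107, 117 and 76.2 CPM in the descending libraries, a change of 1.33 (SE 0.22, adjusted p = 0.00468). JAG2 was 36.9, 16.7, 74.5 and 31.9 CPM against 15.3, 9.27, 18.7 and 15.6 CPM and did not pass (adjusted p = 0.319), and DLL1 (adjusted p = 0.615) and DLL4 (adjusted p = 0.79) did not either.

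Of 21 tested targets and modulators of Notch, HES4 was the called gene. HES4, a transcriptional repressor, was 215, 84.6, 72.5 and 58.9 CPM in the infrarenal libraries and 24.6, 19.3, 13.4 and 8.7 CPM in the descending libraries, a rise of 2.70 (SE 0.50, adjusted p = 0.00937), with infrarenal replicate 1 the highest library. The targets that are best known in smooth muscle did not pass. HEYL was 328, 186, 199.5 and 203 CPM in the infrarenal libraries and 152, 208, 210.1 and 272 CPM in the descending libraries (0.12 (adjusted p = 0.859)), and the groups overlapped. HES1 was 79.2, 26.2, 25.4 and 32.9 CPM in the infrarenal libraries and 29.2, 15.7, 20.3 and 19.3 CPM in the descending libraries (0.95 (adjusted p = 0.384)), and the changes of HEY1 and HEY2 were -0.36 (SE 0.30) and 0.09 (SE 0.27). The median of the 21 was 0.02, equal to that of all genes. NOTCH1, JAG2, DLL4 and the called ligand JAG1 are also expressed by endothelial cells, whose markers varied among the infrarenal libraries. The summed level of 15 endothelial markers was 1171, 1391, 3405 and 1749 CPM in the infrarenal libraries and 884 to 1244 CPM in the descending libraries. Its part in the Notch values was not tested.

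Of the genes of the elastic fibre and its microfibrils, 1 passed the edgeR test and was lower in the infrarenal aorta, and 3 passed with DESeq2. Of 20 tested members 3 had a fitted change above 0, against 52.1% of all genes, and the median was -0.34. In the list 1 was called lower and 0 higher, against 1.02% and 0.634% of all genes. Without infrarenal replicate 1 the median was -0.58 with 1 member above 0 and again 1 called. EMILIN2, a glycoprotein of elastin and fibrillin surfaces, was 68.9, 74.8, 86.6 and 70.7 CPM in the infrarenal libraries and 176, 152, 216 and 151 CPM in the descending libraries, a change of -1.21 (SE 0.20, adjusted p = 0.00475). ELN, which encodes elastin, was 33.4, 246, 221 and 135 CPM in the infrarenal libraries and 349, 635, 423 and 212 CPM in the descending libraries. Its change of -1.35 (SE 0.55, adjusted p = 0.295) did not pass, and infrarenal replicate 2 lay above descending replicate 4. FBN1, the main fibrillin of the microfibril, was 265, 436, 351 and 459 CPM in the infrarenal libraries and 816, 662, 617 and 596 CPM in the descending libraries, so the groups did not overlap, but its change of -0.83 (SE 0.23, adjusted p = 0.0889) did not pass with edgeR. FBN2, the second fibrillin, was 1.47, 2.29, 1.7 and 2.83 CPM against 3.48, 4.7, 6.61 and 7.15 CPM (-1.40 (adjusted p = 0.0876)). DESeq2 called both fibrillins, FBN1 at an adjusted p of 0.0139 and FBN2 at 0.0135, and EMILIN2, and limma voom called neither fibrillin (adjusted p = 0.0791 and 0.15). MFAP2, a microfibril component, was 23.1, 12.9, 18.2 and 20.3 CPM against 38.2, 27.3, 33.7 and 34.4 CPM (-0.84 (adjusted p = 0.21)), and FBLN5, which organises elastin on microfibrils, was 707, 538, 555 and 374 CPM against 720.0, 791, 908 and 890.0 CPM (-0.61 (adjusted p = 0.274)). FBN2, MFAP2 and FBLN5 had no overlap either. In 6 of the 20 members the infrarenal libraries lay entirely below the descending libraries, against 5.51% of all genes. MFAP5 did overlap, at 103, 265, 195 and 126 CPM against 191, 907, 777 and 499 CPM (-1.78 (adjusted p = 0.208)). The summed level of the 20 genes was 9501 to 13661 CPM in the infrarenal libraries and 14121 to 14619 CPM in the descending libraries. Of the 5 lysyl oxidases, which cross-link elastin and collagen, 0 were called by edgeR, DESeq2 or limma voom and 1 had an unadjusted p under 0.05. That gene was LOX, at 28.6, 189, 84.1 and 103 CPM against 128, 591, 324 and 196 CPM (-1.62 (adjusted p = 0.314)).

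**Figure D3:**
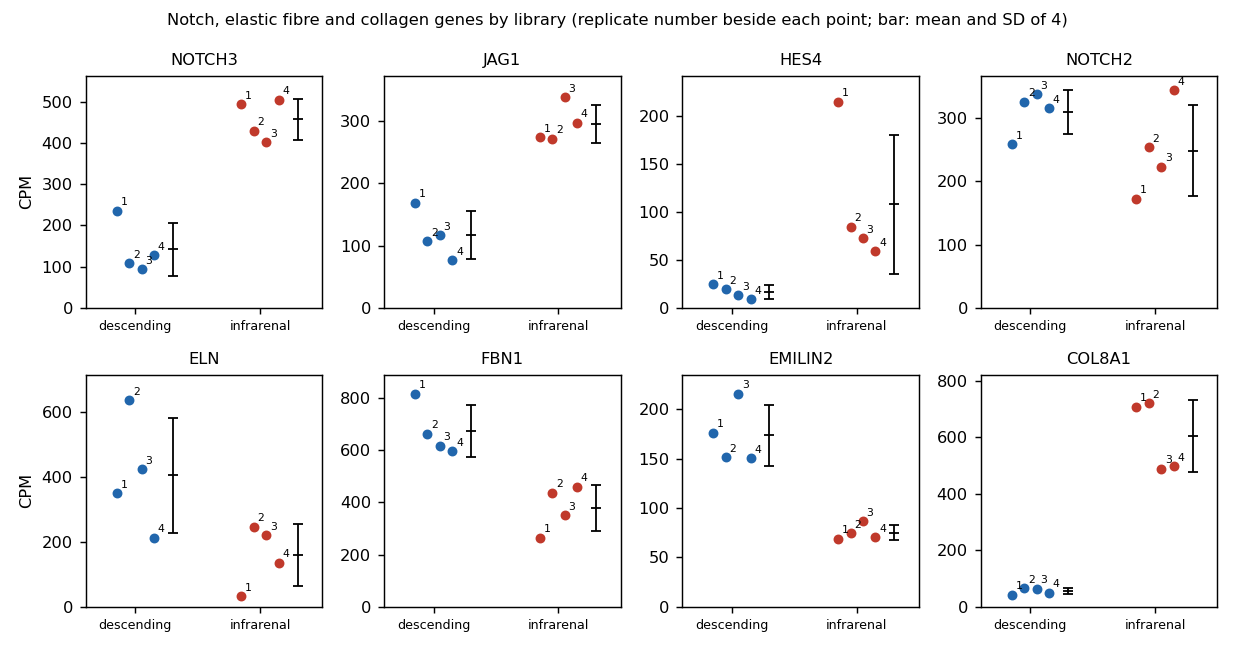
CPM (vertical axis of each panel, linear from 0) of 8 genes in the 4 descending (blue) and 4 infrarenal (red) libraries, with the replicate number beside each point and the mean and SD of 4 as a bar. NOTCH3, JAG1, HES4, EMILIN2 and COL8A1 were called and show no overlap, FBN1 shows no overlap and was not called by edgeR, and NOTCH2 and ELN overlap.

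Among 18 tested fibrillar and associated collagens 1 was called, where 1.65% of all genes were called in either direction and 1.02% lower. COL8A1, a short-chain collagen of the subendothelium and of migrating smooth muscle cells, was 707, 719.9, 488 and 498 CPM in the infrarenal libraries and 42.1, 64.9, 63.3 and 50.4 CPM in the descending libraries. Its rise of 3.45 (SE 0.48, adjusted p = 0.00159) was a 10.9-fold difference. The main fibrillar collagens were not called. COL1A1 was 2513, 3454, 1687 and 4465 CPM against 2465, 2275, 1549.9 and 1528 CPM (0.63 (adjusted p = 0.371)) and COL3A1 1957, 4157, 1687 and 3647 CPM against 3118, 3566, 1850.1 and 2275 CPM (0.08 (adjusted p = 0.925)), and both overlapped. COL21A1, a fibril-associated collagen outside the list, was lower at 17.6, 18.1, 26.5 and 6.9 CPM against 46.6, 48.1, 66.2 and 42.3 CPM (-1.56 (SE 0.32, adjusted p = 0.0207)), a call lost without infrarenal replicate 2 or descending replicates 2 or 3 (adjusted p up to 0.073). Of 23 tested basement membrane genes 2 were lower, COL4A3 and COL4A4, which lie head to head and encode chains of the same collagen IV trimer. COL4A3 was 10.6, 9.93, 8.58 and 14.4 CPM in the infrarenal libraries and 63.1, 84.7, 82.8 and 86.5 CPM in the descending libraries, a change of -2.87 (SE 0.32, adjusted p = 0.000932). COL4A4 was 10.4, 17, 7.54 and 20.2 CPM in the infrarenal libraries and 72.9, 72.3, 37.3 and 70.9 CPM in the descending libraries, a change of -2.20 (SE 0.46, adjusted p = 0.0219), and lost its call with any 1 library left out other than infrarenal replicate 4 or descending replicate 3 (adjusted p up to 0.0676). COL4A5, the third chain of that trimer, was 150.2, 241, 194 and 231 CPM against 285, 360.1, 344 and 342 CPM without overlap and was not called (adjusted p = 0.296). COL4A1, of the common collagen IV, was 728, 1129, 844 and 981 CPM against 837, 1068, 679 and 738 CPM (0.15 (adjusted p = 0.815)).

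Of 26 tested proteoglycan and cartilage-matrix genes, ACAN was higher and SULF2 lower, against 0.634% and 1.02% of all genes. ACAN, the large aggregating proteoglycan aggrecan, was 48.5, 11.8, 5.37 and 10.2 CPM in the infrarenal libraries and 0.672, 0.181, 0.97 and 1.05 CPM in the descending libraries. Its change was 4.70 (SE 1.08, adjusted p = 0.0375), and infrarenal replicate 1 was the highest library. Without that library the change was 3.65. The call of ACAN was lost with any 1 library left out other than infrarenal replicate 3 (adjusted p up to 0.13). SULF2, which removes sulphate from heparan chains, was 28.7, 28.6, 33.5 and 65.5 CPM against 68.3, 128, 103 and 171 CPM (-1.59 (SE 0.35, adjusted p = 0.027)), and its call was lost with any 1 library left out other than infrarenal replicate 4 or descending replicate 1 (adjusted p up to 0.103). Among the 6 tested chondrocyte markers SOX9 was lower, ACAN was higher and the other 4 were not called. Of 36 tested proteases and inhibitors 1 was called, ADAMTSL4, a protein of fibrillin microfibrils without protease activity, and DESeq2 called 5. ADAMTSL4 was 261, 219.8, 202 and 196 CPM against 316, 306, 308 and 394 CPM (-0.59 (SE 0.13, adjusted p = 0.0358)), a call lost with any 1 library left out other than infrarenal replicate 1 (adjusted p up to 0.149). TNC, the matrix protein tenascin-C, was outside the lists and higher at 88.9, 348, 213 and 427 CPM against 39.2, 38.5, 87.2 and 44.1 CPM (2.37 (SE 0.50, adjusted p = 0.0228)). It lost its call with any 1 library left out other than infrarenal replicates 1 or 3 or descending replicate 3 (adjusted p up to 0.093). ENPP1, which makes the mineralisation inhibitor pyrophosphate, was lower at 42.7, 32.1, 49.2 and 59.8 CPM in the infrarenal libraries and 176, 221, 235 and 255 CPM in the descending libraries, a change of -2.27 (SE 0.31, adjusted p = 0.00155).

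Ion channel genes differed in both directions. Of 36 tested potassium channel genes 5 were higher and 2 lower, against 0.634% and 1.02% of all genes, while the median change was -0.27, and without infrarenal replicate 1 the calls were 4 higher and 3 lower. KCNA5, a voltage-gated channel of vascular muscle, was 89.3, 57.2, 64.1 and 115 CPM in the infrarenal libraries and 12.7, 6.62, 19.7 and 15.6 CPM in the descending libraries, a rise of 2.57 (SE 0.34, adjusted p = 0.00155). KCNA2, of the same subfamily, was 9.56, 16.6, 12.8 and 21.9 CPM against 2.02, 2.29, 2.79 and 3.27 CPM (2.55 (SE 0.46, adjusted p = 0.00857)). KCNAB1, a cytoplasmic beta subunit of these channels, was 50.9, 106, 54.3 and 33 CPM in the infrarenal libraries and 7.03, 3.79, 2.24 and 3.93 CPM in the descending libraries, a rise of 3.84 (SE 0.63, adjusted p = 0.00494), and infrarenal replicate 2 was the highest library. KCNT2, a sodium-activated channel, was 12, 51.6, 20.1 and 30.7 CPM in the infrarenal libraries and 0.794, 1.99, 0.849 and 1.33 CPM in the descending libraries, a rise of 4.52 (SE 0.80, adjusted p = 0.00768), with infrarenal replicate 1 the lowest of its group. KCNH2, a voltage-gated channel best known from the heart, was 62.6, 51, 37.2 and 34.5 CPM against 7.82, 11.7, 11.3 and 14.4 CPM (2.03 (SE 0.47, adjusted p = 0.039)) and lost its call with any 1 of the 8 libraries left out (adjusted p up to 0.126). KCNB2, outside the list, had 150 infrarenal counts against 1 descending count, a ratio of 162 with an exact 95% interval of 28.6 to 6440.0 that covers counting error only. KCNB2 lost its call with any 1 library left out other than infrarenal replicates 1, 3 or 4 (adjusted p up to 0.10).

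In the lower direction KCNJ15, an inward rectifier, was 0.154, 0, 0 and 0.113 CPM in the infrarenal libraries and 5.44, 17.6, 15.4 and 21.1 CPM in the descending libraries. It fell by 7.69 (SE 1.03, adjusted p = 0.00155), and 2 of the 4 infrarenal libraries held 0 counts. The fitted fall of KCNJ15 was -8.29 without infrarenal replicate 1. The small accessory subunits KCNE1 and KCNE2, outside the list, moved in opposite directions. KCNE1 was 4.24, 0.662, 3.74 and 6.0 CPM in the infrarenal libraries and 38, 23.9, 24.6 and 43.5 CPM in the descending libraries, a change of -3.15 (SE 0.58, adjusted p = 0.00965). KCNE2 was 20.3, 9.21, 2.62 and 5.66 CPM in the infrarenal libraries and 1.83, 0.783, 0.788 and 1.27 CPM in the descending libraries, a rise of 3.002 (SE 0.62, adjusted p = 0.0207). The rise of KCNE2 was 2.32 without infrarenal replicate 1, and its call was lost without infrarenal replicate 1 or descending replicates 2, 3 or 4 (adjusted p up to 0.0864). The large-conductance calcium-activated channel, which relaxes smooth muscle, did not pass in either subunit. KCNMA1 was 236, 357, 277 and 329.8 CPM against 328, 425, 427 and 404 CPM (-0.40 (adjusted p = 0.655)) and KCNMB1 193, 177, 151 and 183 CPM against 175, 203, 191 and 201 CPM (-0.13 (adjusted p = 0.843)).

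Of 41 tested genes of calcium handling 2 were higher and 4 lower, against 0.634% and 1.02% of all genes. Without infrarenal replicate 1 the calls were 2 higher and 2 lower. PCP4, a small regulator of calmodulin, had 362 counts in the infrarenal group and 3 in the descending group, a ratio of 130.3 (exact 95% interval 44.2 to 635, counting error only). The infrarenal libraries held 11.4, 4.88, 2.82 and 5.09 CPM of PCP4 and the 3 descending counts were all in descending replicate 4 (adjusted p = 0.00155). The fitted change was 6.88, and 9.64 without that library. CACNA1H, a T-type calcium channel, was 70.6, 52.5, 92.1 and 106 CPM in the infrarenal libraries and 19, 8.61, 11.3 and 5.99 CPM in the descending libraries, a rise of 2.84 (SE 0.49, adjusted p = 0.00705). CAMK2B, a subunit of calmodulin-dependent kinase II, was 8.48, 3.19, 4.13 and 4.02 CPM in the infrarenal libraries and 27.2, 34.7, 26.6 and 43.2 CPM in the descending libraries, a change of -2.74 (SE 0.36, adjusted p = 0.00155). CACNB4, a beta subunit of voltage-gated calcium channels, was 3.24, 9.63, 8.52 and 3.28 CPM against 17.6, 29.4, 27.4 and 26.5 CPM (-2.03 (SE 0.37, adjusted p = 0.00937)). CACNA2D3 (-2.54 (adjusted p = 0.0452)) and CASQ1 (-2.21 (adjusted p = 0.0387)) were also called lower. The call of CACNA2D3 was lost with any 1 library left out other than descending replicate 4 (adjusted p up to 0.162) and that of CASQ1 with any 1 of the 8 libraries left out (adjusted p up to 0.125). CACNA1C, the L-type channel that carries most calcium entry in smooth muscle, was 97.6, 99.7, 97.5 and 128 CPM against 116, 92.3, 103 and 112 CPM, a change of 0.002 (SE 0.21, adjusted p = 0.999).

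Among 52 tested receptors and effectors of vascular tone, 1 was higher and 1 lower, against 0.634% and 1.02% of all genes. DESeq2 called 8 of the 52. P2RX1, the ATP-gated channel through which sympathetic nerves contract smooth muscle, was 230.2, 246, 164 and 121 CPM in the infrarenal libraries and 8.8, 5.96, 1.58 and 1.77 CPM in the descending libraries. It rose by 5.39 (SE 1.03, adjusted p = 0.0113), a 42-fold difference, and descending replicates 1 and 2 were above descending replicates 3 and 4. The call of P2RX1 was lost without descending replicates 3 or 4 (adjusted p up to 0.0511). CHRM2, a muscarinic acetylcholine receptor, was 0.386, 3.67, 2.62 and 2.32 CPM in the infrarenal libraries and 20.6, 34.1, 61 and 15.6 CPM in the descending libraries, a change of -3.85 (SE 0.65, adjusted p = 0.00559), with infrarenal replicate 1 the lowest library. EDNRA, the endothelin receptor of smooth muscle, was 20.6, 31.4, 26.1 and 39.9 CPM against 18.8, 11.7, 10.9 and 13.3 CPM without overlap and did not pass with edgeR (adjusted p = 0.0817), but did with DESeq2 (adjusted p = 0.0098). S1PR3, a receptor for sphingosine 1-phosphate outside the list, was higher at 176, 221, 143 and 264 CPM in the infrarenal libraries and 14.5, 16.4, 38.6 and 38.1 CPM in the descending libraries, a change of 2.90 (SE 0.47, adjusted p = 0.00463). RGS2, which shuts off signalling of receptors coupled to Gq, was higher at 88.5, 85.6, 70.05 and 30.4 CPM against 14.4, 12.6, 7.04 and 9.03 CPM (2.67 (SE 0.42, adjusted p = 0.00427)). Of 12 tested renin-angiotensin genes 0 were called by edgeR, DESeq2 or limma voom and 3 had an unadjusted p under 0.05. The smallest p among them was that of AGTR1 (18, 27.6, 14.1 and 10.4 CPM against 49.9, 53.1, 32.4 and 27.2 CPM, adjusted p = 0.237).

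**Figure D4:**
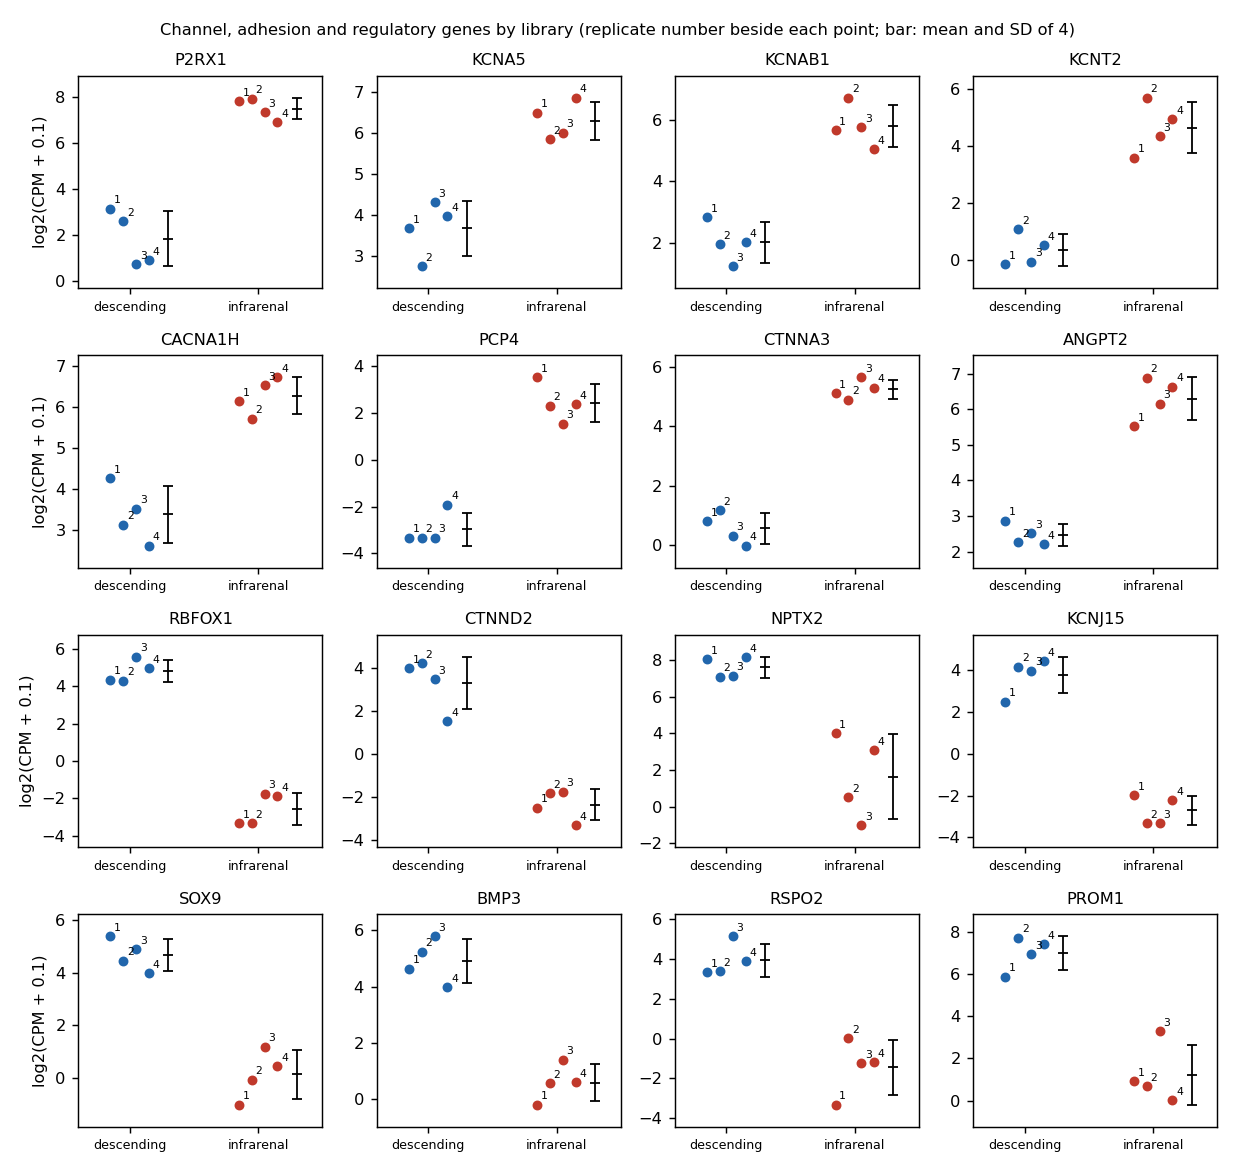
Level of 16 genes as log2(CPM + 0.1) (vertical axis of each panel, scales differ) in the 4 descending (blue) and 4 infrarenal (red) libraries, with the replicate number beside each point and the mean and SD of 4 as a bar. The upper 8 genes were higher and the lower 8 were lower in the infrarenal aorta, and the groups are separate in every panel shown.

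Of 33 tested genes on the list of contractile smooth muscle 1 was called, against 1.65% of all genes. It was MCAM, a membrane glycoprotein of mural cells and not a contractile protein, and the other 32 were not called. MCAM was 2022, 2028, 1565 and 1866 CPM in the infrarenal libraries and 821, 787, 818 and 877 CPM in the descending libraries, a rise of 1.18 (SE 0.24, adjusted p = 0.0213), and its call was lost with any 1 library left out other than infrarenal replicates 1, 3 or 4 (adjusted p up to 0.0823). MYH11, the smooth muscle myosin heavy chain, was 6707, 7495, 5680.0 and 7584 CPM in the infrarenal libraries and 11707, 10466, 9790.1 and 11445 CPM in the descending libraries and was not called although the groups did not overlap (-0.66 (adjusted p = 0.468)). ACTA2, smooth muscle actin, was 18555, 6661, 5746 and 6885 CPM in the infrarenal libraries and 4919, 5624, 5334 and 5873 CPM in the descending libraries (0.80 (adjusted p = 0.314)). MYL9, the regulatory light chain, was 38491, 9476, 8829.8 and 7393 CPM in the infrarenal libraries and 6195, 6505, 6686 and 6308 CPM in the descending libraries (1.32 (adjusted p = 0.159)), and infrarenal replicate 1 was the highest library for both. DES, desmin, was 767, 747, 624 and 533 CPM against 240.0, 425, 249 and 149 CPM without overlap (1.33 (adjusted p = 0.22)). The median of the 33 was 0.08, and -0.01 without infrarenal replicate 1. HSPB7, a small heat shock protein of muscle outside the list, was lower at 82.2, 65.7, 77.8 and 71.4 CPM against 121, 249, 238 and 327 CPM (-1.65 (SE 0.27, adjusted p = 0.0050)). SORBS2, an adaptor of actin and of cell contacts, was higher at 216, 405, 339 and 515 CPM in the infrarenal libraries and 12.8, 10.7, 36.7 and 28.8 CPM in the descending libraries (4.05 (SE 0.90, adjusted p = 0.0308)), a call lost with any 1 library left out other than infrarenal replicates 1 or 3 (adjusted p up to 0.118).

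Of 21 tested cadherins and catenins 1 was higher and 1 lower, against 0.634% and 1.02% of all genes. CTNNA3, the alpha-catenin of heart and muscle contacts, was 34.6, 29.6, 49.9 and 39.2 CPM in the infrarenal libraries and 1.65, 2.17, 1.15 and 0.887 CPM in the descending libraries. It rose by 4.70 (SE 0.64, adjusted p = 0.00155), a 26.1-fold difference. CTNND2, a delta-catenin known from neurons, was 0.0771, 0.181, 0.197 and 0 CPM in the infrarenal libraries and 15.6, 18.4, 11 and 2.77 CPM in the descending libraries. It fell by 6.64 (SE 1.17, adjusted p = 0.00754), and descending replicate 4 was the lowest of its group. With limma voom the call of CTNND2 was lost (adjusted p = 0.225). The laminin receptor BCAM was 1464, 681, 664 and 783 CPM in the infrarenal libraries and 227, 252, 255 and 299 CPM in the descending libraries, a rise of 1.80 (SE 0.32, adjusted p = 0.00786), with infrarenal replicate 1 the highest library. GJA1, the gap junction protein connexin 43, was lower at 374, 438, 474 and 513 CPM in the infrarenal libraries and 913, 1321, 1495 and 872 CPM in the descending libraries, a change of -1.35 (SE 0.25, adjusted p = 0.0105). CLDN11, a tight junction protein, was also lower, at 21.1, 13, 14.9 and 12.7 CPM against 119.5, 109, 219.9 and 128 CPM (-3.22 (SE 0.47, adjusted p = 0.00239)).

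Of 52 tested genes of axon guidance 5 were lower and 1 higher, or 6 and 0 without infrarenal replicate 1, and DESeq2 called 9. Over all genes 1.02% were called lower and 0.634% higher. NTN4, a netrin that binds laminin, was 79.1, 128, 153 and 130.1 CPM in the infrarenal libraries and 333, 357, 319 and 332 CPM in the descending libraries, a change of -1.45 (SE 0.20, adjusted p = 0.00155). SEMA3C, a secreted semaphorin of outflow tract development, was 54.8, 43.9, 58.8 and 88 CPM in the infrarenal libraries and 260.1, 248, 354 and 254 CPM in the descending libraries, a change of -2.18 (SE 0.33, adjusted p = 0.00341). CRMP1, a cytoplasmic mediator of semaphorin signals, was 0.617, 0.782, 3.8 and 0.849 CPM in the infrarenal libraries and 11.9, 35, 28.6 and 23.4 CPM in the descending libraries, a change of -4.03 (SE 0.62, adjusted p = 0.00362). Infrarenal replicate 3 was the highest of its group for CRMP1, and without it the change was -5.01. EFNB3, an ephrin, was scarce at 0.309, 0.361, 0.393 and 0.566 CPM against 3.3, 1.51, 2.85 and 2.33 CPM (-2.58 (SE 0.43, adjusted p = 0.00525)). DPYSL4, a relative of CRMP1, was 2.31, 2.41, 3.15 and 3.0 CPM against 6.48, 11.8, 6.73 and 8.42 CPM (-1.62 (SE 0.31, adjusted p = 0.0109)), and its call was lost without descending replicate 2 (adjusted p up to 0.0528). DPYSL5, of the same family, went the other way at 19.6, 15.2, 25.3 and 16.7 CPM in the infrarenal libraries and 0.55, 0.301, 0.121 and 1.72 CPM in the descending libraries (4.81 (SE 1.15, adjusted p = 0.0468)). The change of DPYSL5 was 5.86 without descending replicate 4, and its call was lost with any 1 of the 8 libraries left out (adjusted p up to 0.163).

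Among 39 tested genes of synapses and neuronal adhesion 5 were lower and 1 higher, against 1.02% and 0.634% of all genes, and the median was -0.48. Without infrarenal replicate 1 the median was -0.28, with 4 lower and 1 higher. NPTX2, a secreted pentraxin that clusters glutamate receptors, was 15.8, 1.32, 0.393 and 8.26 CPM in the infrarenal libraries and 261, 135, 141 and 285 CPM in the descending libraries. It fell by 5.01 (SE 0.95, adjusted p = 0.0109), infrarenal replicates 1 and 4 were above infrarenal replicates 2 and 3, and without infrarenal replicate 1 the change was -5.92. SHISA9, an auxiliary protein of AMPA-type glutamate receptors, was 1.23, 0.301, 0.983 and 0.113 CPM in the infrarenal libraries and 19.3, 16.7, 23.5 and 13.4 CPM in the descending libraries, a change of -4.82 (SE 0.77, adjusted p = 0.00462). GRIA3, a subunit of such a receptor, was 6.25, 6.02, 6.55 and 8.37 CPM in the infrarenal libraries and 24.1, 26.4, 23.2 and 27.4 CPM in the descending libraries, a change of -1.89 (SE 0.27, adjusted p = 0.00239). NLGN4X, a neuroligin, was 2.85, 2.95, 2.82 and 3.9 CPM against 9.84, 12.5, 9.7 and 10.7 CPM (-1.77 (SE 0.21, adjusted p = 0.00106)). CNTN5, a contactin, was 9.02, 19.9, 11.1 and 19.5 CPM against 43.2, 96.3, 74.4 and 87.3 CPM (-2.34 (SE 0.46, adjusted p = 0.016)), a call lost without infrarenal replicates 1 or 3 or descending replicate 2 (adjusted p up to 0.0553). TENM3, a teneurin, was higher at 52.1, 57.7, 38.5 and 42.1 CPM against 20.5, 22.3, 11.7 and 20.6 CPM (1.34 (SE 0.27, adjusted p = 0.0181)), a call lost without infrarenal replicate 2 or descending replicate 3 (adjusted p up to 0.0671). ERC2, a protein of the presynaptic zone outside the list, had 3 infrarenal counts against 313 descending counts, a ratio of 96.6 (exact 95% interval 32.8 to 471, counting error only). Markers of Schwann cells, which ensheathe nerves, had a median of -0.35 (-0.23 without infrarenal replicate 1) with 0 of 12 called by edgeR, DESeq2 or limma voom and 1 at an unadjusted p under 0.05. Their summed level was 335 to 494 CPM in the infrarenal libraries and 461 to 650 CPM in the descending libraries, with SOX10 at 1.23, 0.602, 4.78 and 1.3 CPM against 2.63, 1.63, 2.79 and 2.05 CPM. Their part in the neuronal gene values was not tested.

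RBFOX1, a regulator of alternative splicing in muscle and neurons, had the most negative fitted change of the called genes. It was 0, 0, 0.197 and 0.17 CPM in the infrarenal libraries and 20.2, 19.6, 47.3 and 31.2 CPM in the descending libraries, with 0 counts in infrarenal replicates 1 and 2. The change was -8.17 (SE 0.97, adjusted p = 0.00106), and it was not called with limma voom (adjusted p = 0.0545). The other 17 tested splicing regulators were not called.

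Genes of growth and patterning signals were called in both directions. Over all genes 0.634% were called higher and 1.02% lower. Of 46 tested genes of the TGF-beta and BMP pathways BMP3 was lower and GREM1 higher, and DESeq2 called 5. BMP3, a BMP that opposes other BMPs, was 0.771, 1.38, 2.56 and 1.41 CPM in the infrarenal libraries and 24.7, 37.8, 55.1 and 15.7 CPM in the descending libraries, a change of -4.43 (SE 0.67, adjusted p = 0.00341). GREM1, a secreted BMP antagonist, was 22.8, 72, 41 and 21.5 CPM in the infrarenal libraries and 1.28, 0.361, 1.88 and 7.43 CPM in the descending libraries, a rise of 3.83 (SE 0.82, adjusted p = 0.0242). Descending replicate 4 was the highest of its group for GREM1, and without it the change was 5.06. The call of GREM1 was lost without infrarenal replicate 2 or descending replicates 1, 2 or 3 (adjusted p up to 0.0964). Of 44 tested WNT genes 2 were lower and 1 higher, or 1 and 0 without infrarenal replicate 1, and DESeq2 called 5. RSPO2, which amplifies WNT signals, was 0, 0.903, 0.328 and 0.34 CPM in the infrarenal libraries and 9.84, 10.2, 34.8 and 14.5 CPM in the descending libraries, a change of -5.39 (SE 0.86, adjusted p = 0.00427). Its change was -6.17 without infrarenal replicate 2 and -4.81 without descending replicate 3. SFRP1, a secreted WNT antagonist, was 72.4, 88.3, 106 and 101 CPM against 283, 279, 149.7 and 177 CPM (-1.27 (SE 0.28, adjusted p = 0.0306)), a call lost with any 1 library left out other than descending replicates 3 or 4 (adjusted p up to 0.111). LRP5, a WNT co-receptor, was 131, 101, 107 and 102 CPM against 61.6, 63.5, 64.2 and 62.6 CPM (0.81 (SE 0.19, adjusted p = 0.0396)), a call lost with any 1 of the 8 libraries left out (adjusted p up to 0.118).

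Of 56 tested growth factors and receptors ANGPT2 and PDGFRB were higher and 0 were lower, against 0.634% and 1.02% of all genes. DESeq2 called 4 of the 56. ANGPT2, a ligand of the endothelial receptor TEK, was 45.8, 118, 70.8 and 99.2 CPM in the infrarenal libraries and 7.21, 4.7, 5.64 and 4.49 CPM in the descending libraries, a rise of 3.92 (SE 0.63, adjusted p = 0.00468), with infrarenal replicate 1 the lowest of its group. PDGFRB, the receptor of mural cells, was 317, 370.1, 361 and 360.0 CPM in the infrarenal libraries and 258, 240.2, 209.7 and 212 CPM in the descending libraries, a rise of 0.61 (SE 0.13, adjusted p = 0.0193). The call of PDGFRB was lost with any 1 library left out other than infrarenal replicates 1 or 3 or descending replicate 1 (adjusted p up to 0.0869). Of 39 tested genes of inflammation and complement 2 were lower. PTGS1, cyclooxygenase 1, was 32.2, 35.2, 79.3 and 36.7 CPM against 186, 186, 102 and 119 CPM (-1.69 (SE 0.34, adjusted p = 0.0164)), a call lost without infrarenal replicates 2 or 4 or descending replicates 1 or 2 (adjusted p up to 0.0667). IL18, an inflammasome cytokine, was 11, 13.9, 10.4 and 9.9 CPM against 13.4, 36.7, 37.8 and 42.4 CPM, with descending replicate 1 inside the infrarenal range (-1.53 (SE 0.36, adjusted p = 0.039)), a call lost with any 1 library left out other than descending replicate 1 (adjusted p up to 0.132). Of 42 oxidative phosphorylation subunits 0 were called by edgeR, DESeq2 or limma voom. An unadjusted p under 0.05 was found for 6 of the 42, against 2197 of all 15926 genes. The median of the 42 was 0.31, and -0.08 without infrarenal replicate 1. Of 23 immediate-early genes, which respond within minutes to handling or stress, 0 were called by edgeR or limma voom, 1 by DESeq2 and 4 had an unadjusted p under 0.05. The gene called by DESeq2 was EGR3 (5.4, 2.83, 1.9 and 4.53 CPM against 8.0, 7.71, 15.6 and 11.4 CPM, adjusted p = 0.0983 with edgeR, 0.0169 with DESeq2).

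Other genes with large or abundant changes fell outside these groups. PROM1, a glycoprotein of membrane protrusions, was 1.77, 1.5, 9.63 and 0.905 CPM in the infrarenal libraries and 59.4, 215, 124 and 171 CPM in the descending libraries, a change of -5.37 (SE 0.84, adjusted p = 0.00394). Infrarenal replicate 3 was the highest of its group for PROM1, and without it the change was -6.67. SUSD4, a regulator of complement, was 4.94, 1.5, 4.26 and 3.96 CPM in the infrarenal libraries and 81.4, 74.6, 64.8 and 73.4 CPM in the descending libraries, a change of -4.33 (SE 0.61, adjusted p = 0.00177). C8H8orf34 was 0.0771, 0.421, 0.197 and 1.24 CPM in the infrarenal libraries and 15.7, 12.4, 20.4 and 23.6 CPM in the descending libraries, a change of -5.14 (SE 0.69, adjusted p = 0.00155), and -6.19 without infrarenal replicate 4. TMEM151B was 0.386, 0.903, 0.262 and 0.849 CPM against 10.5, 4.09, 11.9 and 15 CPM (-4.07 (SE 0.51, adjusted p = 0.00151)), and the unnamed gene LOC102118628 was 2.93, 0.301, 1.97 and 1.98 CPM against 49.4, 46.9, 67 and 98.4 CPM (-5.20 (SE 0.83, adjusted p = 0.00451)). NKAIN2, a partner of the sodium pump, was higher at 36.7, 46.9, 33.9 and 36.4 CPM in the infrarenal libraries and 3.3, 3.61, 1.82 and 0.665 CPM in the descending libraries (4.03 (SE 0.76, adjusted p = 0.0109)), a call lost without descending replicate 3 (adjusted p up to 0.0513). ATP1B1, the beta subunit of that pump, was lower at 9.02, 12.2, 20.4 and 15.4 CPM against 64.3, 65.9, 64.1 and 63 CPM (-2.17 (SE 0.28, adjusted p = 0.00155)). MTUS2, a microtubule-associated protein, shared the smallest adjusted p with HOXA10 and COL4A3 and was 11.6, 13.5, 14 and 8.77 CPM in the infrarenal libraries and 87.9, 95.1, 107 and 82 CPM in the descending libraries, a change of -2.96 (SE 0.31, adjusted p = 0.000932).

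Among called genes of high CPM, which depends on gene length too, AQP1, a water channel, was 1641, 848, 1111 and 998 CPM in the infrarenal libraries and 2709.7, 2415, 2719 and 2507 CPM in the descending libraries. It fell by 1.17 (SE 0.25, adjusted p = 0.0253), infrarenal replicate 1 was the highest of its group, and the call was lost with any 1 library left out other than infrarenal replicate 1 (adjusted p up to 0.0977). GPRC5B, an orphan receptor, was 59.8, 185, 151 and 184 CPM in the infrarenal libraries and 295, 483, 429.9 and 387 CPM in the descending libraries (-1.46 (SE 0.31, adjusted p = 0.0246)), a call lost without infrarenal replicate 3 or descending replicates 2, 3 or 4 (adjusted p up to 0.0889). SMOC1, a secreted calcium-binding protein of basement membranes, was 1200.1, 590.4, 325 and 555 CPM in the infrarenal libraries and 236, 269, 184 and 200.2 CPM in the descending libraries (1.59 (SE 0.35, adjusted p = 0.0305)). Infrarenal replicate 1 was the highest library for SMOC1, and the call was lost with any 1 library left out other than infrarenal replicates 3 or 4 (adjusted p up to 0.112). ITIH3, an inhibitor that binds hyaluronan, was 524, 124, 129.9 and 219.6 CPM against 56.7, 41.4, 30.9 and 42 CPM (2.54 (SE 0.42, adjusted p = 0.00475)), and its change was 1.89 without infrarenal replicate 1.

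Markers of other cell types were called in some lists, at shares above the 1.65% of all genes, and in other lists 0 were called. The lists with calls were short. They held 1 of 15 endothelial, 2 of 8 pericyte and mural, 1 of 7 mesothelial, 2 of 7 skeletal muscle and 2 of 6 chondrocyte markers. In bulk libraries fewer cells of a type and less RNA per cell cannot be told apart. Of 15 endothelial markers, 14 had a fitted change above 0, against 52.1% of all genes, the median was 0.82 and ESAM was the called member. ESAM, an adhesion molecule of endothelial junctions, was 362, 286, 329 and 319.6 CPM in the infrarenal libraries and 58.6, 58.4, 76.5 and 70.4 CPM in the descending libraries, a rise of 2.30 (SE 0.49, adjusted p = 0.0237), and the call was lost without descending replicates 1, 2, 3 or 4 (adjusted p up to 0.0908). The defining markers PECAM1 (125, 305, 874 and 395 CPM against 224, 212, 274 and 254 CPM), CDH5 (18.4, 54.8, 177 and 94.7 CPM against 48, 41.2, 70.8 and 51.3 CPM) and VWF (187, 285, 839 and 285 CPM against 163, 238, 323 and 137 CPM) were not called, with infrarenal replicate 3 the highest library and infrarenal replicate 1 below the descending range for PECAM1 and CDH5. Of 8 tested pericyte and mural markers MCAM and PDGFRB were higher, while RGS5 was 1719, 3848, 2507 and 3916 CPM against 5174, 4493, 4152 and 4439 CPM (-0.61 (adjusted p = 0.601)) and KCNJ8 was 111, 49.5, 43.2 and 39.2 CPM against 33.2, 35.8, 31.4 and 29.4 CPM (0.90 (adjusted p = 0.122), called by DESeq2 at an adjusted p of 0.0384). Among 7 tested mesothelial markers KRT8, a keratin, was lower at 9.64, 2.95, 5.57 and 3.28 CPM against 11.7, 16.3, 49.6 and 50.5 CPM (-2.59 (SE 0.47, adjusted p = 0.0088)). Among 7 tested skeletal muscle markers ACTN3 (18.1, 11.3, 13 and 13.4 CPM against 39.7, 35, 40.03 and 27.3 CPM, -1.35 (adjusted p = 0.0343)) and CASQ1 were lower. The list did not follow 1 direction, as 3 of the 7 had a fitted change above 0, up to 2.83. Its summed level overlapped, at 66.6 to 96.1 CPM in the infrarenal and 59.3 to 85.6 CPM in the descending libraries. DESeq2 called 3 members, ACTN3, CASQ1 and TNNI2. The call of ACTN3 was lost with any 1 library left out other than infrarenal replicate 1 or descending replicate 4 (adjusted p up to 0.116). In the lists of smooth muscle, fibroblast, white adipocyte, brown adipocyte, macrophage, lymphocyte, mast, Schwann and cardiac muscle markers 0 genes were called by edgeR or limma voom. At an unadjusted p under 0.05 these lists held 2, 1, 0, 1, 1, 0, 1, 1 and 1 genes in that order. DESeq2 called UCP1 among the brown adipocyte, CPA3 among the mast cell and MYH6 among the cardiac markers. Of the adrenal markers 1 was tested, CYP21A2 (0.52 (adjusted p = 0.775)), and red cell markers had 0 tested genes.

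In the lists without a call, the members with the smallest p were the following, of which edgeR called none. DESeq2 called CPA3 (adjusted p = 0.0159), MYH6 (adjusted p = 0.0377), UCP1 and EGR3 among them. For smooth muscle they were TAGLN (1.17 (adjusted p = 0.194)) and ACTA2, and for fibroblasts MFAP5 and PDGFRA (-0.99 (adjusted p = 0.501)). Macrophage markers gave CD68 (-1.05 (adjusted p = 0.29)) and CD163 (-0.64 (adjusted p = 0.408)), and lymphocyte markers CD3D (2.08 (adjusted p = 0.433)) and CD4 (-0.47 (adjusted p = 0.528)). CPA3 (-2.75 (adjusted p = 0.14)) and HPGDS (-0.80 (adjusted p = 0.522)) stood for mast cells, and NCAM1 (-0.77 (adjusted p = 0.299)) and SCN7A (-1.17 (adjusted p = 0.461)) for Schwann cells. Cardiac muscle gave ACTC1 (-0.88 (adjusted p = 0.659)) and MYH6, with 1 infrarenal count against 33 descending counts, a ratio of 30.6 (exact 95% interval 5.12 to 1243, counting error only, adjusted p = 0.166). The white adipocyte markers were DGAT2 (-1.96 (adjusted p = 0.455)) and ADIPOR2 (-0.38 (adjusted p = 0.461)), and COX7A1 (0.73 (adjusted p = 0.43)) followed UCP1 among the brown adipocyte markers. Among pathway genes they were LOX and LOXL4 (-0.49 (adjusted p = 0.461)), AGTR1 and AGT (2.37 (adjusted p = 0.314)), EGR3 and DUSP1 (-1.22 (adjusted p = 0.324)), and NDUFS7 (0.94 (adjusted p = 0.271)) and NDUFA2 (0.77 (adjusted p = 0.275)).

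Markers of fat cells were found in both groups. The summed level of 12 white adipocyte markers ran from 351 to 4850 CPM in the infrarenal libraries and from 532 to 5596 CPM in the descending libraries. ADIPOQ, a hormone of fat cells, was 1.39, 11.2, 404 and 55.8 CPM in the infrarenal libraries and 356, 117, 194 and 14.1 CPM in the descending libraries (-0.53 (adjusted p = 0.889)). UCP1, the uncoupling protein of brown fat, had 2 counts summed over the infrarenal and 1393 over the descending libraries. Nearly all of the UCP1 counts came from descending replicates 1 and 3, at 43.3, 0.12, 41 and 0.333 CPM in the 4 descending libraries, and the difference did not pass with edgeR (adjusted p = 0.11) or limma voom (adjusted p = 0.514) and did with DESeq2 (adjusted p = 0.0111).

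**Figure D5:**
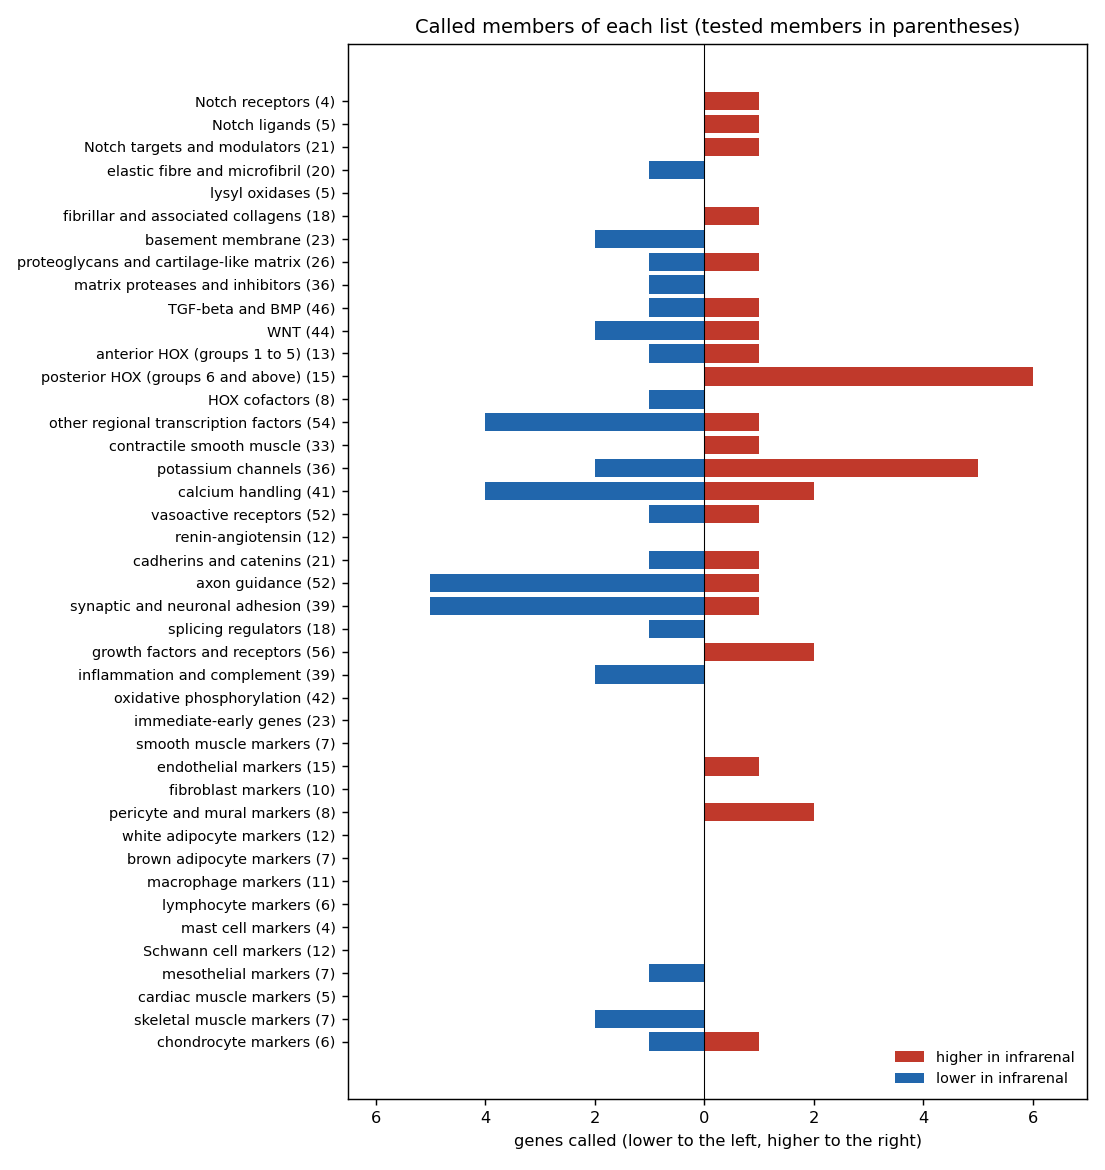
Number of genes called lower (blue, to the left) and higher (red, to the right) in the infrarenal aorta for each gene list, with the number of tested members in parentheses. Posterior HOX genes had the most higher calls, 6 of 15, potassium channel genes 5 of 36, and the lists of axon guidance and of synaptic genes had 5 lower calls each, of 52 and 39.

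Some called genes were next to each other in the genomic order of the tested genes. In the order of gene starts on the assembly MFA8v1.1 (RefSeq annotation), 251 called genes could be placed, and 13 pairs of them were adjacent. In all 13 pairs both genes were called in the same direction. Over all called genes 101 were higher and 162 lower. How many such pairs would arise without regard to position was not worked out. The use of strand in the counting is not stated, so neighbours whose gene models overlap may share counts. HOXA9, HOXA10 and HOXA11, HOXC4 and HOXC9, and HOXD9 and HOXD10 made 4 of the pairs. HOXC4 and HOXC9 were adjacent by gene start only. HOXC5, HOXC6 and HOXC8, between them in paralog number, were tested and not called, and gene models of this cluster overlap. TBX2 and the uncharacterised LOC107127822 (2.48) were both higher. COL4A3 and COL4A4 were both lower, as were the keratins KRT5 (-2.92) and KRT8, HOXA4 and LOC107129228 (-2.38), and NPTX2 and BAIAP2L1 (-3.04). DACH2 (-4.38) and KLHL4 (-2.74), PLCL2 (-1.22) and RFTN1 (-1.48), and CYP27A1 (-1.13) and PRKAG3 (-2.71) were also lower in pairs.

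The ascending and suprarenal libraries give the levels of these genes above the descending aorta and between the 2 regions. Values are mean CPM ± SD (n = 4) in the order ascending, descending, suprarenal and infrarenal, with genes picked after their values were seen and no test made on them. COL8A1 was 41.2 ± 25.6, 55.2 ± 10.9, 129 ± 84.5 and 603 ± 128. P2RX1 was 2.62 ± 1.46, 4.53 ± 3.49, 35.5 ± 50.8 and 190.2 ± 58.1, and CTNNA3 was 1.04 ± 0.474, 1.46 ± 0.566, 5.52 ± 5.36 and 38.3 ± 8.66. HOXD9 was 0.958 ± 0.825, 0.967 ± 0.668, 4.78 ± 5.27 and 31.5 ± 9.97. Of the genes lower in the infrarenal aorta, HOXA4 was 13.1 ± 5.15, 19.5 ± 3.88, 11.5 ± 1.97 and 3.11 ± 1.05. SOX9 was 18.5 ± 7.74, 27.3 ± 11.3, 10.03 ± 11.2 and 1.16 ± 0.756, and BMP3 was 12.9 ± 9.82, 33.3 ± 17.1, 8.02 ± 4.66 and 1.53 ± 0.744. NTN4 was 279 ± 20.6, 335 ± 15.9, 313 ± 73.5 and 123 ± 31.2. COL4A3 was 90.9 ± 20.1, 79.3 ± 10.9, 43.9 ± 22.3 and 10.9 ± 2.48. In these 9 genes the suprarenal mean lay between the descending and the infrarenal mean. Because they were picked with these values seen, this does not give the share of called genes with that order, which was not worked out.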

How the data were processed

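Total RNA of the aorta was sequenced in 16 libraries made with a NEBNext Ultra RNA kit, per the labels' protocols. The authors deposited raw read counts per NCBI GeneID. The submitters' processing notes name featureCounts (1.5.0-p3), HISAT2 (2.0.5) and fastp. The genome build, annotation and strand setting were not given in the sources used here. Counting to gene models without a stated strand leaves overlapping genes uncertain. All 16 library files held the values of the series table. Symbols for 24609 of 32846 rows (74.9%) and the gene order came from RefSeq's annotation of MFA8v1.1, whose coordinates and sequences are not used here. The 24 rows of mitochondrial RNAs held 0.0295 to 0.118% of the counts and stayed in the table.

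Groups came from the labels, which name no batch or date. Genes were kept with filterByExpr (minimum count 10, minimum total 15), which left 15926 genes and 99.9% of the counts. Using edgeR 4.0.16 (R 4.3.3), a quasi-likelihood model with TMM factors and 1 mean per region was fitted and tested with the F test (12 residual degrees of freedom, biological coefficient of variation 0.382). Calls are at a Benjamini-Hochberg adjusted p under 0.05, and an SE is the log2 change divided by the square root of F. CPM values are scaled with TMM factors. Ratios of summed counts are scaled by effective library size, with exact binomial 95% intervals, and a floor of 3 counts stands for 0. The script was tested on simulated data. Between libraries of 1 region, chi-square divided by its degrees of freedom was at least 29.6, so no library repeated another.

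Alternatives were the replicate number as a block, the 8 libraries alone, RLE factors, library totals, other filters, DESeq2 1.42.0, limma voom (limma 3.58.1), glmTreat and each of the 8 libraries left out. The named genes were NOTCH3, JAG1, ELN and FBN1, the 12 largest called changes in each direction without overlap and at a mean log2 CPM of 1 or more (of 83 higher and 133 lower), the 6 called genes of highest CPM in each direction, and per list up to 4 called members or, without a call, the 2 of smallest p. Other genes were picked after their values were seen, and a few results are not reported here. The comparison and the gene lists were chosen with earlier results of these data known.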

Additional observations from a re-analysis of the deposited data

Results flagged for a closer look

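In groups of 4 libraries, a library was singled out where its gap to the nearest of the other 3, divided by the range of the group, passed Dixon's critical value at the 95% level. Of 354 groups examined (each named gene in each region, and measures of the libraries) 44 had such a library. Chance gives about 5% for independent values with a normal distribution. CPM values of genes from the same libraries are not independent and need not be normal, so the 44 do not measure an excess. A group whose few counts all fall in 1 library is singled out whatever their number. This holds for KCNB2 (1 count) and PCP4 (3 counts) in the descending group. It also holds for MYH6 (1 count) and UCP1 (2 counts) in the infrarenal group, and all of these are among the 44. Infrarenal replicate 1 was also singled out by its ribosomal protein genes, 1.17 log2 units above the group mean, and by its place of 148 on the first principal component. Infrarenal replicate 1 was the highest library of its group for ACAN at 48.5 CPM, ACTA2 at 18555 CPM, BCAM at 1464 CPM, COX7A1 at 162 CPM and DUSP1 at 1048 CPM. It also held the highest values of HES1 at 79.2 CPM, HES4 at 215 CPM, HEYL at 328 CPM, HOXA7 at 92 CPM and KCNJ8 at 111 CPM. It also held the highest values of LOC107127822 at 4.4 CPM, MYL9 at 38491 CPM, NDUFA2 at 113 CPM, NDUFS7 at 208 CPM and UCP1 at 0.154 CPM. Infrarenal replicate 3 was the highest library of its group for ADIPOQ at 404 CPM, CRMP1 at 3.8 CPM, DGAT2 at 183 CPM, MYH6 at 0.0655 CPM and PROM1 at 9.63 CPM. It also held the highest values of PTGS1 at 79.3 CPM, SOX10 at 4.78 CPM and VWF at 839 CPM. Infrarenal replicate 4 was the highest library of its group for CACNA1C at 128 CPM, NLGN4X at 3.9 CPM and SULF2 at 65.5 CPM. Infrarenal replicate 4 was the lowest library of its group for HOXA10 at 24.8 CPM. Descending replicate 1 was the highest library of its group for DGAT2 at 728 CPM and KCNB2 at 0.0611 CPM. Descending replicate 1 was the lowest library of its group for CD3D at 0 CPM and COL4A3 at 63.1 CPM. Descending replicate 2 was the highest library of its group for HPGDS at 2.11 CPM, KLHL4 at 6.74 CPM and SCN7A at 18.5 CPM. Descending replicate 3 was the highest library of its group for MYH6 at 1.09 CPM, SEMA3C at 354 CPM and TNC at 87.2 CPM. Descending replicate 3 was the lowest library of its group for COL4A4 at 37.3 CPM. Descending replicate 4 was the highest library of its group for ADAMTSL4 at 394 CPM, PCP4 at 0.166 CPM and PRKAG3 at 3.38 CPM. Descending replicate 4 was the lowest library of its group for NCAM1 at 52.7 CPM.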

How the results depend on the processing

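With the replicate number as a block and all 16 libraries, 432 genes were called, 147 higher and 285 lower, and 253 of the 263 calls were kept. The block added 179 calls outside the 263. Genes are described above as called or not without the block. With the block and the 8 libraries compared the counts were 204, 78 and 126, and without the block in those libraries 235, 94 and 141. Infrarenal and descending libraries of the same number had correlated deviations from their region means, at 0.0871, 0.402, 0.332 and 0.216 for numbers 1 to 4, and each library correlated best with its own number, a hint from the data and not from the design. Over all 4 regions, 19 of 24 same-number pairs were over 0.1, with a median of 0.344 against -0.0947 for other pairs. Because not every pair is over 0.1 and no label ties a number to an animal, the numbers were not taken as pairs in the main fit. The lowest of the infrarenal and descending pairs, number 1 at 0.0871, holds infrarenal replicate 1, which stood apart in library measures. DESeq2 called 624 genes (265 higher, 359 lower), and a test against a log2 change of 1 (glmTreat) called 73 (24 higher, 49 lower), fewer because its null is wider. Leaving out each library in turn gave 132 to 264 calls, 37 to 94 higher and 95 to 171 lower. The lowest counts came without descending replicate 2, and counts lower than the main count by over 1.5 times also came without infrarenal replicate 2 (152), descending replicate 3 (154) and descending replicate 4 (161). An alternative added after the data were seen, the block without infrarenal replicate 1, called 431 genes (151 higher, 280 lower). With limma voom, library totals alone, RLE size factors, or a looser (1 count) or stricter filter (CPM of 1 in 4 libraries), the tests called 242 to 271 genes. No called gene changed sign in any of these settings, and 58 of the 263 were called in all 18 planned ones. Signs turned in at least 1 setting for 8 named genes without a call. ADIPOQ was -0.526, and from -2.88 to 0.125 over the left-out libraries. CACNA1C was 0.0016, and from -0.106 to 0.047 over the left-out libraries, -0.0728 with library totals alone, -0.00373 with limma voom. COL3A1 was 0.0829, and from -0.153 to 0.277 over the left-out libraries. COX7A1 was 0.727, and from -0.114 to 0.978 over the left-out libraries, -0.068 in the added setting. CYP21A2 was 0.521, and from -0.125 to 0.876 over the left-out libraries, -0.0386 with limma voom, -0.645 in the added setting. HEY2 was 0.0935, and from -0.0156 to 0.212 over the left-out libraries, -0.0152 with library totals alone. HEYL was 0.122, and from -0.0976 to 0.269 over the left-out libraries, -0.00782 with library totals alone, -0.115 in the added setting. SOX10 was -0.20, and from -1.11 to 0.102 over the left-out libraries. The cause of these differences was not tested. Genes under the count filter, such as 9 posterior HOX genes, were too shallowly counted to be tested.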
